A study of Mus musculus with 29 samples.

Results

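TOX3-HA, the transcription factor TOX3 carrying HA tags at its C-terminus, was mapped by chromatin immunoprecipitation and sequencing (ChIP-seq) in NIH-3T3 cells, a mouse embryonic fibroblast line. The regions described here are all 1286 peaks of its list, out of 304922 peaks in the 28 lists of the series. The 28 lists belong to 24 constructs, and each construct was expressed from a doxycycline-inducible transgene in its own NIH-3T3 line that also carried the transactivator rtTA3G. Every line received 500 ng/ml doxycycline overnight and was precipitated with the same anti-HA antibody. The other constructs were 20 further wild-type factors (BHLHB8, BRACHYURY, CDX2, DLX1, DLX6, DUXBL, EBF1, FOXA1, HLF, MAX, NANOG, OCT4, PRR3, RHOX11, SIX6, SOX15, SOX2, TEAD1, THAP4 and ZFP319), the FOXA1 mutants RR and SW, and OCT4-HA expressed together with SOX2-YPET. Binding of the transgene product was therefore measured, not that of any endogenous TOX3. TOX3-HA has 1 list and no replicate, so the intervals and tests given here count peaks as units and compare libraries, with counting error only. The files hold positions and no read numbers, so the depth of the TOX3-HA library is unknown and peak width is the only size that can be given for a site.

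TOX3 belongs to the TOX family of nuclear proteins, which share a single HMG box, a DNA-binding fold that bends DNA. The HMG box of SOX factors reads a short base sequence, whereas that of the TOX family is grouped with the boxes that recognise DNA shape more than sequence. In neurons TOX3 is known as a cofactor of CREB in calcium-dependent transcription, and in people it is best known from the breast cancer risk locus that holds its gene. Fibroblasts are not a tissue in which its function is well described.

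The TOX3-HA peaks divided into 496 promoter peaks (38.6%, 95% exact interval 35.9 to 41.3%), in which the peak's midpoint was at most 1 kb from where a protein-coding transcript begins, and 790 distal peaks (61.4%). The promoter peaks were GC-rich and lay at gene starts, and the distal peaks lay in introns or between genes and were shared with many other constructs. The central 150 bases of 6 promoter peaks are shown because their base composition and a pair of short boxes recur in the results below. They are the 3 widest that fewer than 10 other constructs overlapped and the 3 widest that none overlapped, leaving out windows that touched an exon and 1 chromosome, that of Mex3c, which was not used for display. All sequences are from the RefSeq copy of GRCm38 (mm10), read on the + strand, and capitals mark CCAAT or its complement ATTGG, the box read by NF-Y, and GGGCGG or its complement CCGCCC, the box read by SP and KLF factors.
Zfp36l2, chr17:84188328-84188477, + strand: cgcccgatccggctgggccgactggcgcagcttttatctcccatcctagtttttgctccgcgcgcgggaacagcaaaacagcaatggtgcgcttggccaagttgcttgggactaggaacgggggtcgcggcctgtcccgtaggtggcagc
Fosl2, chr5:32135430-32135579, + strand: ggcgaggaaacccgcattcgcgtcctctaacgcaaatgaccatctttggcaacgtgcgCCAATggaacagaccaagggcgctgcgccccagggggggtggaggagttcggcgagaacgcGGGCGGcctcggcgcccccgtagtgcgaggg
Gsk3b, chr16:38088835-38088984, + strand: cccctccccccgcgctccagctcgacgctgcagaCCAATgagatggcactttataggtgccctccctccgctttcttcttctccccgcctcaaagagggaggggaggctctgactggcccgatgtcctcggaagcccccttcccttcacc
Gnai2, chr9:107635394-107635543, + strand: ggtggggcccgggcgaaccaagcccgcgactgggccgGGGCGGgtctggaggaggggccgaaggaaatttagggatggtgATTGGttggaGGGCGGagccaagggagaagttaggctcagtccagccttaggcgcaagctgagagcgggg
Tyk2, chr9:21131276-21131425, + strand: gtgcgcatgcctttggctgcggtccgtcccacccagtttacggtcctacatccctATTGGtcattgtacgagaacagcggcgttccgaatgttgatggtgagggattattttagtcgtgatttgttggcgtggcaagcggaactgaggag
Zfp687, chr3:95015456-95015605, + strand: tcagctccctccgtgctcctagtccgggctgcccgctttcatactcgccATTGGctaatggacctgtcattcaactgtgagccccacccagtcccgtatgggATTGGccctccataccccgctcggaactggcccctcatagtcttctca

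CCAAT or ATTGG was found in 5 of these 6 windows, and the Zfp36l2 window held neither of the marked sequences. GGGCGG was found only in the windows of Fosl2 and Gnai2. Over all promoter peaks the shares were 37.7% for CCAAT and 73.6% for GGGCGG, in the central 200 bp. The windows shown were picked by width and outside exons, and are not typical of all promoter peaks. Fosl2 encodes a subunit of AP-1, Gsk3b a serine/threonine kinase of the Wnt and insulin pathways, Gnai2 an inhibitory G protein alpha subunit, Tyk2 a kinase of the JAK family, and Zfp36l2 and Zfp687 zinc finger proteins, of which the first promotes the decay of messenger RNA. The peaks of Fosl2 and Gsk3b were 1013 and 981 bp wide and were overlapped by 4 and 2 other constructs.

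For the distal peaks, the sequence TGACTCA or TGAGTCA, bound by AP-1 dimers of Fos and Jun proteins, is marked in capitals in the 3 widest peaks that held it, again with fewer than 10 other constructs. These were picked to display the sequence and are not typical of all distal peaks.
Azin1, chr15:38470737-38470886, + strand: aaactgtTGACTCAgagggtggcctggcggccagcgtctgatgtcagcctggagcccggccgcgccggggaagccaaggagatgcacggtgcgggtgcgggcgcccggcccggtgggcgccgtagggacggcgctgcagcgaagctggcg
Klf9, chr19:23135129-23135278, + strand: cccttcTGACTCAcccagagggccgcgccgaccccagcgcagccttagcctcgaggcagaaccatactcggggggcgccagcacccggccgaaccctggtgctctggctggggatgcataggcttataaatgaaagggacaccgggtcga
Rps24, chr14:24793766-24793915, + strand: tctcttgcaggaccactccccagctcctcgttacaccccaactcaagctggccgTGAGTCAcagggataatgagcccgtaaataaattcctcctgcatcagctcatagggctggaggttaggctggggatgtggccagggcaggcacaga

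The Azin1 site lay 47.4 kb downstream of the nearest protein-coding start and between genes, the Klf9 site 6.02 kb upstream of Klf9 and inside an annotated intron, and the Rps24 site 303 kb downstream of the nearest start and between genes. The widest TOX3-HA peak of all, at 1463 bp, lay in an intron of Tox3 itself. Its centre was AT-rich, with 40.7% G or C bases against 73.3% at the Azin1 site, and it held no AP-1 sequence.
Tox3, chr8:90271433-90271582, + strand: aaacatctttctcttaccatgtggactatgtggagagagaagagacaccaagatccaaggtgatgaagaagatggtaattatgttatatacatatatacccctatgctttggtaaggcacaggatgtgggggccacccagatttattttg

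TOX3-HA ranked 17th of the 24 constructs by the number of peaks. Its peaks were 203 to 1463 bp wide, with a median of 328 bp, and covered 0.483 Mb. Peaks were found on all 19 autosomes, X and Y, most densely on chromosome 19 with 10.4 per 10 Mb and on chromosome 11 with 9.58 per 10 Mb, and on X there were 0.643 per 10 Mb. Before the comparisons, a property of the library labelled TEAD1-HA has to be given, because several results below rest on it. CATTCC, the sequence that TEAD factors are known to read, was present in 5.41% of the central 200 bp of its distal peaks. This was the lowest share of the 22 constructs with 100 or more distal peaks, whose median without TOX3-HA was 15.5%, and it was 16.5% in TOX3-HA. The low share was not limited to this sequence. Distal peaks of TEAD1-HA were also the lowest of the 22 for the AP-1 sequence (1.86%) and CCAAT (10.6%), whereas GGGCGG (8.52%) was 3rd highest. The promoter peaks of TEAD1-HA had a median GC content of 74.0%, above the 71.0% of TOX3-HA, in windows of the same size. Why TEAD1-HA peaks held few TEAD sequences was not tested, and results are given with and without this list where it decides them.

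Promoter peaks of TOX3-HA were centred just upstream of the start. The midpoint lay a median of 28 bp upstream (-28 bp, with quartiles of -151 and 81.2 bp), and 335 of the 496 midpoints (67.5%) were within 200 bp of the start. A start itself was covered by 322 of the promoter peaks (64.9%). Their median GC content was 70.0% with a CpG frequency of 0.864 of that expected from base composition, and the median peak held no repeat-masked base. Distal peaks had a median GC content of 56.0% and a CpG ratio of 0.271, and were narrower, with a median of 315 bp against 356 bp. Of the distal peaks, 349 (44.2%) had their midpoint in an intron, 362 (45.8%) between genes and 17 (2.15%) in a coding exon. The nearest protein-coding start was 1 to 10 kb away for 206 distal peaks, 10 to 100 kb for 466 and over 100 kb for 118. A minority of the distal peaks resembled promoters, in that 94 (11.9%) had a CpG ratio above 0.6, and 123 (15.6%) lay within 1 kb of the start of a transcript that is not protein-coding or of a non-coding transcript of a protein-coding gene.

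**Figure D1:**
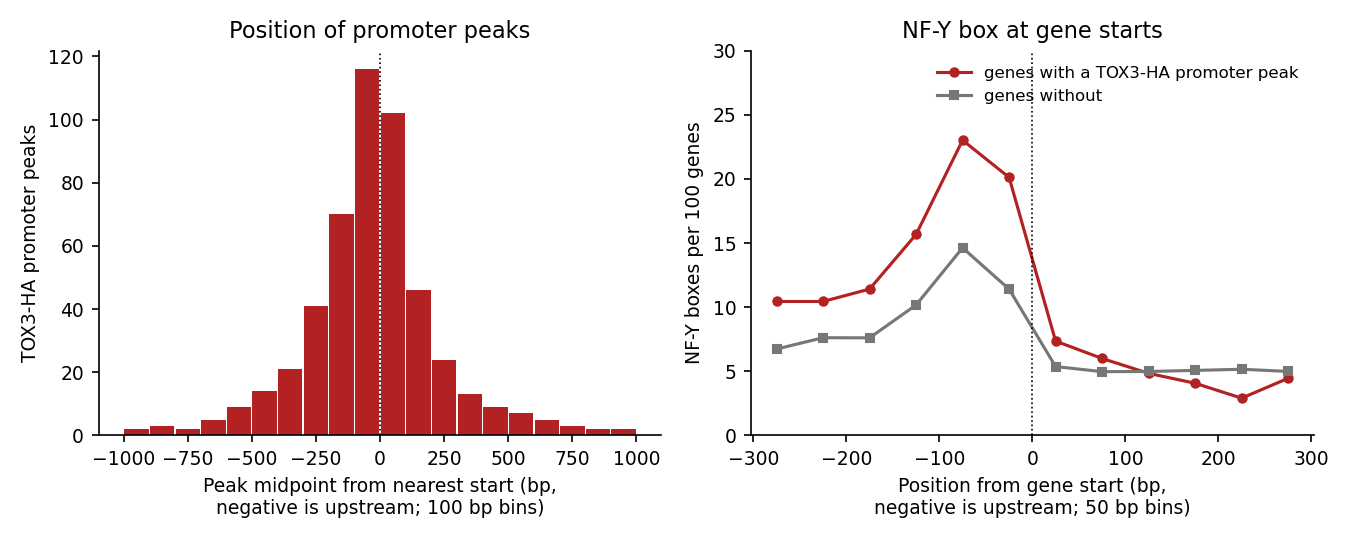
Left, number of TOX3-HA promoter peaks (y axis) by the distance of the peak midpoint from the nearest protein-coding start (x axis, bp, bins of 100 bp), where the 2 bins beside the start hold 116 and 102 peaks. Right, number of CCAAT or ATTGG sequences, labelled NF-Y boxes, per 100 genes (y axis) in bins of 50 bp around the gene start (x axis, bp). They are shown for 517 genes with a TOX3-HA promoter peak (circles) and 21421 without (squares), and reach 23.02 and 14.63 in the bin from -100 to -50 bp.

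The promoter share of TOX3-HA was higher than that of 21 of the 23 other constructs (Fisher's exact test over peaks, two-sided, with Benjamini-Hochberg adjustment over the 23 comparisons, largest adjusted p = 0.00546, for THAP4-HA). CDX2-HA had the lowest promoter share at 2.19%. The exceptions were RHOX11-HA, a homeodomain factor with 44.9% of its 4579 peaks at promoters (log2 odds of TOX3-HA over it -0.38, Fisher's exact test, adjusted p = 4.8e-05), and TEAD1-HA with 45.3% of 14959 (log2 odds -0.40, adjusted p = 3.61e-06). EBF1-HA, the next in order, had 16.99% if THAP4-HA, with 12 promoter peaks of 58, is set aside. The depth of these libraries is unknown, and its part in the differences was not tested. SOX15-HA and SOX2-HA, which also carry an HMG box, had promoter shares of 3.38% and 4.35%.

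By an overlap of at least 1 bp, nearly every TOX3-HA site was also a site of another construct. The pooled lists are large, with a BHLHB8-HA promoter peak at 46.6% of protein-coding genes. The same shares are not given here for the other constructs, so whether such sharing is particular to TOX3-HA was not tested. No other list overlapped 53 peaks (4.12%, interval 3.10 to 5.36%), of which 24 were promoter peaks (4.84%) and 29 distal peaks (3.67%), a difference within counting error (log2 odds 0.42, Fisher's exact test, p = 0.316). Leaving out TEAD1-HA raised the promoter peaks found in no other list to 60 (12.1%) and the distal ones to 30 (3.797%), and this difference passed the test (log2 odds 1.79, Fisher's exact test, p = 3.17e-08). Leaving out BHLHB8-HA, by far the largest list with 83627 peaks over 1.33% of the genome, left 111 peaks in no other list, 53 promoter and 58 distal (log2 odds 0.60, Fisher's exact test, p = 0.0414). When an overlap had to cover 50% of both peaks, 20.9% of the TOX3-HA peaks were in no other list, and promoter peaks were shared less often than distal ones (log2 odds of sharing -1.74, Fisher's exact test, p = 5.16e-18). The call on unshared promoter sites therefore depended on the overlap rule and on which large lists were counted.

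The number of constructs at a site differed between the classes, and is given here for TOX3-HA peaks alone. Among promoter peaks 390 (78.6%, interval 74.8 to 82.2%) were shared with 1 to 4 other constructs, against 232 distal peaks (29.4%, interval 26.2 to 32.7%). Among distal peaks 377 (47.7%) were shared with 5 to 9 others, against 75 promoter peaks (15.1%). Sites of 10 or more other constructs made up 152 distal peaks (19.2%, interval 16.5 to 22.2%) and 7 promoter peaks (1.41%, interval 0.569 to 2.89%). Without TEAD1-HA the shares for 10 or more others were 18.99% and 1.41%. The median TOX3-HA promoter peak had 3 other constructs and the median distal peak 6. The sites of 10 or more constructs had a median GC content of 51.0% and 9.16% of repeat-masked bases, against 59.9% and 3.52% over all TOX3-HA peaks.

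**Figure D2:**
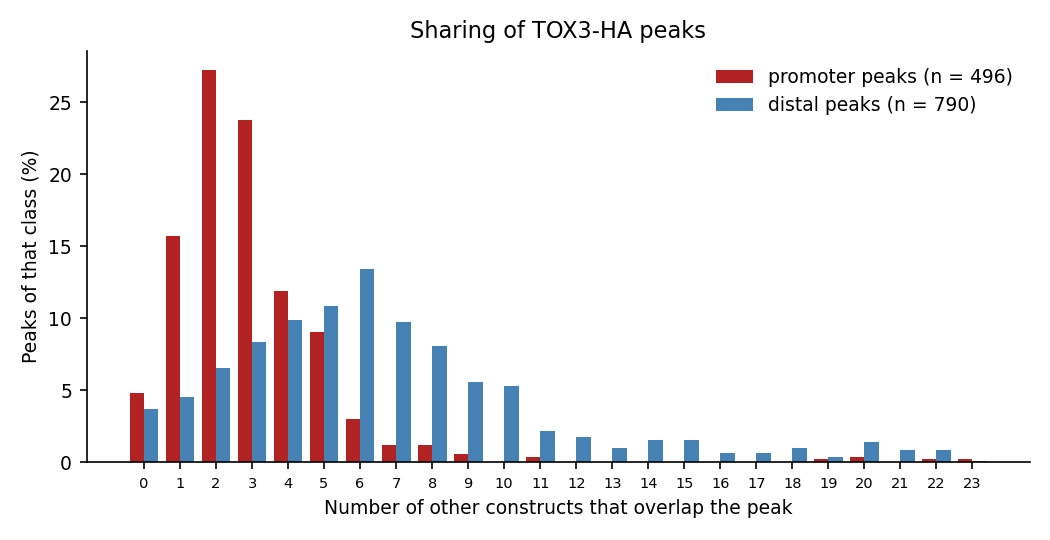
Share of the 496 promoter peaks (red) and of the 790 distal peaks (blue) of TOX3-HA (y axis, percent) by the number of other constructs that overlap the peak by at least 1 bp (x axis, 0 to 23). Promoter peaks are most frequent at 2 other constructs (27.2%), and distal peaks at 6 (13.4%).

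TEAD1-HA overlapped 317 of the promoter peaks (63.9%, interval 59.5 to 68.1%) and 65 of the distal peaks (8.23%, interval 6.41 to 10.4%). It was the only 1 of the 23 constructs that overlapped more of the promoter than of the distal peaks (log2 odds 4.29, Fisher's exact test with Benjamini-Hochberg adjustment, adjusted p = 8.43e-102). The other 22 each overlapped more of the distal peaks (Fisher's exact test, largest adjusted p = 0.00159, for ZFP319-HA). SOX2-HA, a pluripotency factor with an HMG box, overlapped 510 distal peaks (64.6%) and 73 promoter peaks (14.7%). SOX15-HA overlapped 278 distal (35.2%) and 14 promoter peaks (2.82%), and SIX6-HA, a homeodomain factor of eye development, 404 (51.1%) and 43 (8.67%). EBF1-HA, a factor of B cells and of adipose and neural tissues, overlapped 485 distal (61.4%) and 139 promoter peaks (28.0%). It was the most alike construct over merged sites, with a Jaccard index of 7.96%, that is, 48.5% of the TOX3-HA peaks and 8.07% of its own 7669. BHLHB8-HA covered 86.9% of the TOX3-HA peaks but only 1.35% of its peaks met one, and for its duplicate lists the first share was 77.9% and 75.8%. The duplicates of SOX2-HA gave 43.1% and 18.2%, and those of FOXA1-HA 20.6% and 10.7%, so that these shares differed by library. PRR3-HA had 62 peaks, of which 48 (77.4%) met a TOX3-HA peak. The share was also high for the other lists of 58 to 151 peaks. It was 55.2% for THAP4-HA, 53.1% for FOXA1_SW-HA, 47.9% for OCT4-HA and 46.4% for FOXA1_RR-HA. The 6 TOX3-HA promoter peaks that PRR3-HA overlapped were sites of 11 to 23 other constructs.

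**Figure D3:**
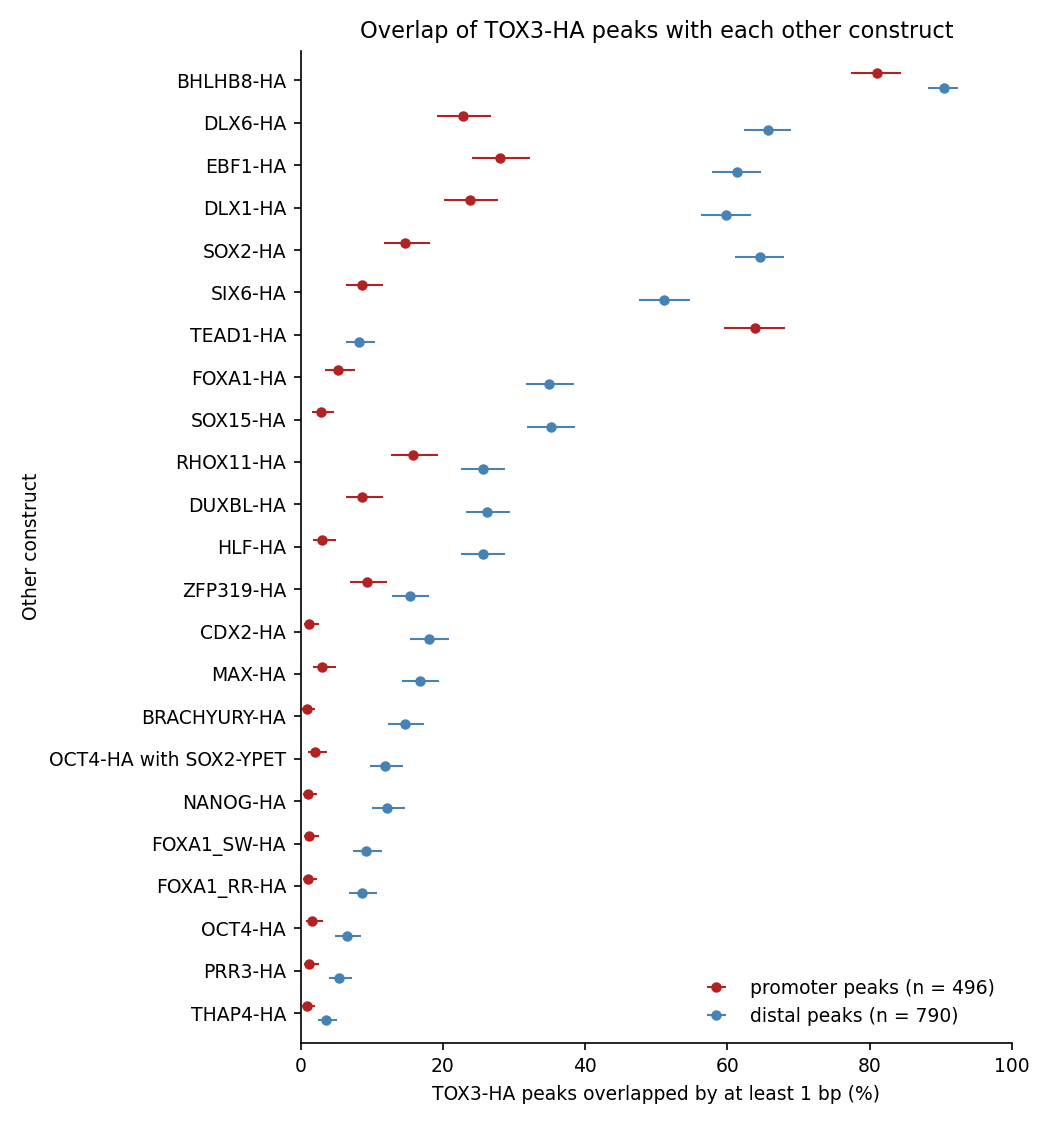
Share of TOX3-HA peaks overlapped by each of the 23 other constructs (x axis, percent), for the 496 promoter peaks (red) and the 790 distal peaks (blue), with 95% exact intervals over peaks. TEAD1-HA alone has the promoter point to the right, at 63.9% against 8.23%.

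TEAD1-HA and BHLHB8-HA together overlapped 264 promoter peaks (53.2%) and 61 distal peaks (7.72%). The most frequent single pattern at promoters was these 2 constructs and no other, with 88 peaks (17.7%), followed by TEAD1-HA alone with 36 and BHLHB8-HA alone with 29. Distal peaks were spread over 468 different combinations of constructs, the most frequent being BHLHB8-HA alone and no construct, with 29 peaks each. The 317 promoter peaks with TEAD1-HA had a median GC content of 72.2% and a CpG ratio of 0.905, and the 179 without it had 65.0% and 0.757. The 65 distal peaks that TEAD1-HA overlapped were also GC-rich, at 66.7% against 55.3% for the other 725. GC content thus moved with overlap by TEAD1-HA in both classes, and its part in the overlap was not tested.

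A TOX3-HA promoter peak was found at 517 of 21938 protein-coding genes (2.36%). The start was CpG-rich for 403 of the 517 (78.0%, interval 74.1 to 81.4%), against 43.6% of the genes without a peak, where CpG-rich means more than 50% G or C and a CpG ratio over 0.6 in the 1000 bp around the start. The share was 80.7% for genes with a TEAD1-HA promoter peak, 79.5% for those with a RHOX11-HA and 46.8% for those with a SOX15-HA promoter peak. Among the 9733 genes with a CpG-rich start, 4.14% had a TOX3-HA peak, which is the nearer background for lists of mostly CpG-rich genes. Starts that face a start on the other strand within 1 kb were 12.6% of the TOX3-HA genes and 10.8% of the genes without, with overlapping intervals of 9.84 to 15.7% and 10.4 to 11.2%. The share of such facing starts was 14.1% for genes with a TEAD1-HA promoter peak and 32.5% for those with a RHOX11-HA one. RHOX11-HA thus differed from the other promoter-rich lists in the kind of start it held. Of the 517 genes 392 (75.8%) also had a TEAD1-HA promoter peak, which is 5.58% of the 7022 genes of TEAD1-HA, itself found at 32% of all protein-coding genes. The gene lists that follow are counts, with no test, beside 2.36% for TOX3-HA, 11.1% for RHOX11-HA and 0.779% for SOX15-HA over all genes.

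Housekeeping gene groups had shares of 0 to 4.41%, beside 2.36% of all genes and 4.14% of those with a CpG-rich start. Only the group of spliceosome and RNA-binding proteins lay above 4.14%. The exact intervals of the groups include both values. Of 86 cytoplasmic ribosomal protein genes 3 had a TOX3-HA promoter peak (3.49%), Rpl7a, Rps2 and Rpl10a, against 41 (47.7%) with a RHOX11-HA peak. The Rps2 and Rpl7a peaks were 981 and 837 bp downstream of the start and were overlapped by 22 and 20 other constructs, whereas that of Rpl10a had 5. None of 78 mitochondrial ribosomal protein genes had a peak, which allows a share of up to 3.85% (3 counts of the total, the limit used here for every count of 0), and none of 48 proteasome genes, which allows up to 6.25%. The first limit lies below 4.14%, and 62 of those 78 genes have a CpG-rich start, but the exact interval reaches 4.62%. Of 68 translation factor genes only Eif5 had a peak. Of 94 respiratory chain genes only Atp5s did, and of 68 genes for spliceosome and RNA-binding proteins Hnrnpa3, Hnrnpa2b1 and Hnrnpf did. Cct7, of the chaperonin that folds actin and tubulin, and Dnajc3, a cochaperone of the endoplasmic reticulum, were the 2 of 80 chaperone genes. No peak was found at 67 replication-dependent histone genes (up to 4.48%), 39 Hox genes (up to 7.69%), 53 keratin genes (up to 5.66%) or 1094 olfactory receptor genes (up to 0.274%). The keratin and olfactory receptor groups hold 0 genes with a CpG-rich start.

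Of 35 CREB-responsive and immediate early genes, which signals induce, 4 had a TOX3-HA peak (11.4%, exact interval 3.20 to 26.7%, against 2.36% of all genes and 4.14% of those with a CpG-rich start, which 30 of the 35 have). Btg2, an antiproliferative gene, had a 234 bp peak 130 bp upstream of its start (-130 bp) that no other construct overlapped. Dusp1, which encodes a phosphatase of MAP kinases, had a 352 bp peak centred at -292 bp that no other construct overlapped either. Bdnf, which encodes a neurotrophin, had a 461 bp peak at 383 bp shared with EBF1-HA and TEAD1-HA. Jund, an AP-1 subunit, had a 303 bp peak at 52 bp shared with TEAD1-HA alone. Of the same 35 genes 22 (62.9%) had a TEAD1-HA peak and 0 had a RHOX11-HA or SOX15-HA peak, which allows up to 8.57%. With 4 genes the share rests on few members, and its interval includes the 4.14% of CpG-rich starts.

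Of 394 genes named Zfp, 6 had a peak (1.52%): Zfp687, Zfp462, Zfp644, Zfp703, Zfp672 and Zfp36l2. Of 342 solute carrier genes 7 did (2.05%), 4 of them mitochondrial carriers of the Slc25 group (Slc25a24, Slc25a25, Slc25a28 and Slc25a35), beside Slc22a4, Slc2a6 and Slc41a2. Col16a1 was the only 1 of 44 collagen genes, with peaks at 2 of its starts, and Sparc, which encodes a matrix glycoprotein made by fibroblasts, the only 1 of 24 fibroblast and matrix genes, with a peak at -757 bp shared with 8 other constructs. Cic, which encodes a repressor of growth factor target genes, and Tcf7l2, which encodes a Wnt pathway effector, were the 2 of 38 HMG-box genes outside the TOX family, and neither peak was overlapped by another construct. Of the genes that encode the expressed factors, Dlx1 had a peak (614 bp, at 420 bp, with 3 other constructs). None of the 4 genes of the TOX family had a promoter peak, which by the limit of 3 counts allows up to 75%.

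The following gene families were picked once the 517 genes had been read, so their counts were chosen after their values were seen and support nothing. Of 17 KLF genes, which encode zinc finger factors that read GC-rich boxes, 5 had a TOX3-HA promoter peak: Klf3, Klf4, Klf9, Klf10 and Klf13. Klf3, Klf10 and Klf13 each had 2 promoter peaks. The Klf9 peak was 853 bp wide, centred at -25 bp and shared with 9 other constructs, whereas the Klf4 peak (641 bp, at -257 bp) was shared with TEAD1-HA alone. In the TGF-beta pathway the receptor genes Tgfbr1 and Tgfbr2 had peaks at -64 and 11 bp, 2 of 3 receptor genes listed. The genes of the receptor-regulated SMAD proteins Smad2 and Smad3 had peaks at -55 and -195 bp, and that of the inhibitory Smad7 at -870 bp, together 3 of 8 SMAD genes. Ccn2, a matricellular gene induced by TGF-beta, had a 300 bp peak at -37 bp. In cytokine signalling the kinase genes Jak2 and Tyk2 had peaks, 2 of 4 JAK genes, and the feedback inhibitor genes Socs1 and Socs3, 2 of 8 SOCS genes. Il6st, a receptor subunit gene in none of the lists, also had 1. Of 24 DUSP phosphatase genes only Dusp1 did (4.17%). A TEAD1-HA promoter peak was present at 7 of the 8 SMAD genes and at 12 of the 17 KLF genes.

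Lipid and membrane genes were also read beside TEAD1-HA, which had a promoter peak at 32% of all protein-coding genes. Scd1 and Scd2, which encode stearoyl-CoA desaturases, had TOX3-HA peaks at -63 and 46 bp, and 0 of the 4 desaturase genes had a TEAD1-HA peak, which allows up to 75% by the limit of 3 counts. Cav1, Cav2 and Cavin3, which encode proteins that build caveolae, had peaks at -105, -48 and 349 bp, and 0 of 7 caveolin and cavin genes had a TEAD1-HA peak, which allows up to 42.9%. None of the desaturase genes listed has a CpG-rich start, and 2 of the caveolin and cavin genes do. The protein disulfide isomerase genes P4hb, Pdia3 and Pdia4 of the endoplasmic reticulum had TOX3-HA peaks, 3 of 6 listed, of which 5 had a TEAD1-HA peak. These families too were chosen after the genes were seen. Both limits on a count of 0 lie above the 32% of TEAD1-HA over all genes, so neither count sets a family apart from it.

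The 12 widest promoter peaks were 865 to 1375 bp. The widest lay 133 bp upstream of 4931408C20Rik (-133 bp), was overlapped by all 23 other constructs and had a GC content of 43.9% and a CpG ratio of 0.0313, unlike the promoter peaks as a whole. Rps2 (1239 bp, 22 others) followed. The next were Zfp36l2 (1217 bp, 6 others), Tlnrd1 (1091 bp, 5 others), Fosl2, Rpl10a (1012 bp, 5 others), Kctd15 (1000 bp, 2 others) and Gsk3b, all with 57.1 to 70.9% G or C. Lnpep (939 bp) encodes an aminopeptidase, Sgms2 (880 bp) a sphingomyelin synthase, Ywhah (876 bp) a 14-3-3 protein and Slc35e4 (865 bp) a carrier. Of the promoter peaks that no other construct overlapped, the 6 widest were those of Mex3c (528 bp), an RNA-binding ubiquitin ligase, Gnai2 (496 bp), Tyk2 (458 bp), Zfp687 (409 bp), Pcbp3 (389 bp), a poly(C)-binding protein, and Gpx4 (376 bp), which reduces lipid peroxides. Mex3c had a second such peak, of 321 bp, at -158 bp.

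The 12 widest distal peaks were 818 to 1463 bp. After the Tox3 intron peak came a peak 380 kb upstream of Khdrbs2 (1028 bp, 8 others), of which 92.7% was repeat-masked, and 1 on Y near Gm20777 (989 bp, 14 others), of which 96.0% was. The others lay near Lrrc74a, Hhat, Kctd15, Hes1, Tmbim1, Calr4, Rock2, Rpl21 and Samd9l. The Hes1 peak (882 bp, 5 others) was 1.31 kb upstream of the start of this Notch target gene, outside the promoter window, with 74.9% G or C, and Hes1 was the nearest gene of 4 further distal peaks. Kctd15 had a wide promoter peak and a wide distal peak 22.2 kb downstream of its start (885 bp, 7 others). The Zfp600 peak (793 bp), in an intron, was together with that of 4931408C20Rik overlapped by all 23 other constructs. Outside Tox3, wide distal peaks in no other construct included those near Banp (375 bp), Aacs (327 bp), Dlx2 (313 bp), Brd2 (300 bp) and Eps8l1 (278 bp), with 57.3 to 64.7% G or C.

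Inside the Tox3 gene, on chromosome 8 from 90247040 to 90348343 on the - strand, there were 9 TOX3-HA peaks, the most within any protein-coding gene, ahead of 8 in Sfi1. They lay from 74.3 to 99.9 kb after the start of this 101 kb gene, a span of 25.6 kb at its far end. In order of transcription they were 528, 1463, 316, 254, 516, 468, 281, 297 and 463 bp wide. Of these 3 covered coding bases, in the 3rd, 4th and 7th of its 7 exon blocks (255, 270 and 463 bases), and 6 covered no exon. No other construct overlapped 8 of the 9, and BHLHB8-HA overlapped the ninth, on the 3rd exon block. The other 23 constructs had 5 peaks in the whole gene, of 4 constructs, and those of TEAD1-HA and DUXBL-HA lay outside the span of the TOX3-HA peaks. These 8 peaks made up 8 of the 29 distal peaks found in no other list. Without the peaks inside Tox3, 3.52% of the TOX3-HA peaks were in no other list. The log2 odds of sharing at promoter over distal peaks then moved from -0.42 to -0.88 (Fisher's exact test, p = 0.0604). The transgene also encodes TOX3, and its part in the peaks on coding bases was not tested.

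**Figure D4:**
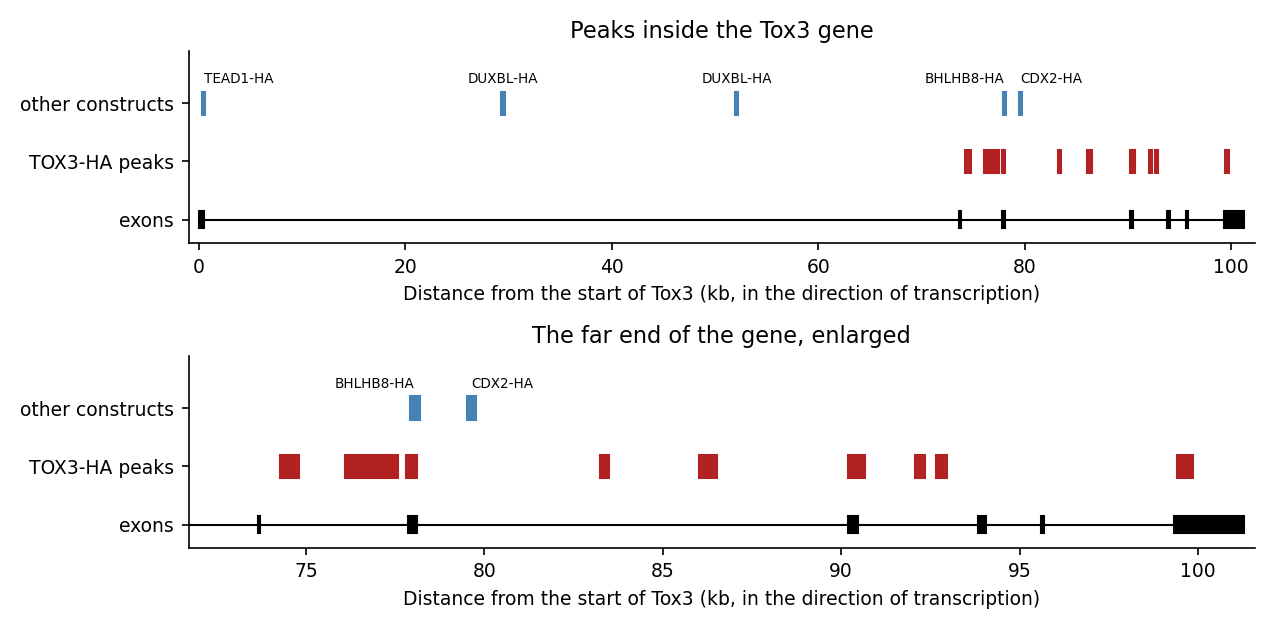
Map of the Tox3 gene (x axis, distance from its start in kb, drawn in the direction of transcription), with exon blocks in black, the 9 TOX3-HA peaks in red and the 5 peaks of other constructs in blue. The upper panel shows the whole gene of 101 kb and the lower panel its far end, where all TOX3-HA peaks lie between 74.3 and 99.9 kb.

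Few other places held runs of TOX3-HA peaks. With gaps of up to 20 kb bridged, the 1286 peaks formed 1082 groups, of which 939 held a single peak and 10 held 4 or more. The largest was around Sfi1 on chromosome 11, with 10 peaks over 51.7 kb, and each of its peaks was overlapped by 3 to 22 other constructs, with a median of 17. The groups near Speer4c and Speer4d (7 peaks), 1600014C10Rik (7 peaks) and Gm15319 (5 peaks) had medians of 12, 15 and 15 other constructs. The median in the Tox3 group was 0.

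Short sequences were counted on both strands in the central 200 bp of each peak. For promoter peaks the controls were windows of the same size at 21418 protein-coding starts without a TOX3-HA peak, once as they are and once weighted to the GC content of the peak windows, since the median GC content was 71.0% in the peaks and 58.5% at those starts. GGGCGG was present in 73.6% of the promoter peaks (interval 69.5 to 77.4%) and in 39.3% of the controls, and in 73.0% of the controls at the same GC content. The difference was thus 34.3 percentage points as measured and 0.57 at equal GC. Among the 17 constructs with 100 or more promoter peaks TOX3-HA had the highest share, followed by TEAD1-HA with 64.6%, the 2 lists with the highest GC content.

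CCAAT behaved in the opposite way. It was present in 37.7% of the promoter peaks (interval 33.4 to 42.1%), in 27.9% of the controls and in 22.1% of the controls at the same GC content, so that the difference widened from 9.85 to 15.6 percentage points. With windows centred on the start in both groups, CCAAT was present at 38.3% of the starts of genes with a TOX3-HA peak and at 22.98% of the starts without, at the same GC content. TOX3-HA ranked 3rd among the 17 constructs, after DUXBL-HA with 51.6% and DLX6-HA with 42.7%, whereas TEAD1-HA was last with 8.22%. Promoter peaks with TEAD1-HA held CCAAT in 34.7% and those without in 43.0%, with intervals of 29.5 to 40.2% and 35.6 to 50.6% that overlap. Among the promoter peaks in no other construct 13 of 24 held it (54.2%, interval 32.8 to 74.4%), and 14 of the 29 such distal peaks (48.3%, interval 29.5 to 67.5%), against 24.2% of all distal peaks. The 287 matches lay a median of 72 bp upstream of the start (-72 bp, quartiles -129.5 and -15.5 bp), and 154 (53.7%) read in the direction of the gene. The windows were themselves centred near the start, which limits where a match can lie. Within 300 bp of the start, the median was -69.5 bp for genes with a TOX3-HA promoter peak and -58 bp for genes without. The position therefore does not set the TOX3-HA genes apart. When all 2080 hexamers were ranked at equal GC content, those with the highest ratio in promoter peaks that were present in 5% of windows included CCAATC (24.2% against 11.7%), GCCAAT (24.4% against 11.9%), ACCAAT (11.5% against 5.65%) and CCAATG (16.5% against 8.22%), which contain the box. The first in the ranking was CAATCA (14.1% against 6.51%), which shares 4 bases with it.

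The ETS and E-box sequences were rarer in TOX3-HA promoter peaks than in both controls. The ETS sequence CCGGAAGT was present in 2 of 496 windows (0.403%, interval 0.0489 to 1.45%), against 4.40% of the controls and 5.70% at the same GC content. It was present in 12.4% of RHOX11-HA and 1.51% of TEAD1-HA promoter peaks, the lists with higher promoter shares. CACGTG, the E-box read by MAX and USF, was present in 2.42% (interval 1.26 to 4.19%) against 5.69% and 8.25% at the same GC. AAGATGGC, read by YY1, was present in 0.605% (interval 0.125 to 1.76%) against 2.80% and 3.88% at the same GC. TGACGTCA, the cyclic AMP response element read by CREB, was present in 0.807% (interval 0.220 to 2.05%) against 2.02%, which is inside the interval, and 2.77% at the same GC. TATAAA was present in 1.41% against 8.20%, and in 2.56% of the controls at the same GC, which is inside the interval of 0.569 to 2.89%. The gaps were smaller in windows centred on the starts of the TOX3-HA genes, where the ETS sequence was present in 1.35% (interval 0.546 to 2.77%) the E-box in 4.45% (2.84 to 6.60%), and the YY1 sequence and the cyclic AMP response element in 1.74% each (0.799 to 3.28%). Of these, only the interval of the ETS sequence leaves out the share at starts without a peak taken as they are. At the same GC content, the shares at starts without a peak were 5.21% (ETS), 7.55% (E-box) and 3.59% (YY1), each above its interval. That share is not given for the cyclic AMP response element. The SOX sequence ACAAAG or ACAATG was present in 9.48% of promoter peaks (interval 7.05 to 12.4%) against 15.9% of the controls and 7.65% at the same GC, so that its direction turned with the control.

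Distal peaks held other sequences. TGACTCA or TGAGTCA was present in 119 of the 790 (15.1%, interval 12.6 to 17.8%), against 3.33% of 691 windows 5 kb downstream (interval 2.12 to 4.95%) and 2.84% of control windows at the same GC content. For distal peaks the latter were a different set, weighted from 243909 distal control windows of all lists. Their median GC content before weighting was 43.5%, against 47.5% in the windows downstream. The 2 controls thus differ in their windows as well as in the weighting. In the 152 distal peaks of 10 or more other constructs it was present in 9.21% (interval 5.13 to 14.97%), in those of 5 to 9 others in 17.2% and in those of 0 to 4 others in 15.3%. None of the 29 distal peaks in no other list held it, which allows a share of up to 10.3% by the limit of 3 counts and 11.9% by the exact interval. Of these 29 peaks, 8 lie together in Tox3. CATTCC was present in 16.5% (interval 13.9 to 19.2%), against 9.70% downstream and 10.4% at the same GC. TGTGGTT, read by RUNX factors, was present in 8.73% (interval 6.86 to 10.9%), against 6.08% downstream (4.42 to 8.13%) and 3.48% at the same GC. ACAAAG or ACAATG was present in 24.2% (interval 21.2 to 27.3%) and in 26.9% downstream, with overlapping intervals, and in 17.4% at the same GC, so that its direction depends on the control. AP-1 sequences were more frequent in the distal peaks of 10 of the 22 constructs with 100 or more distal peaks, up to 30.4% in DLX1-HA. GGGCGG was present in 19.1% of distal peaks against 3.33% downstream and 12.1% at the same GC, the highest share of the 22 constructs, and in 59 of the 94 distal peaks with a CpG ratio above 0.6 (62.8%). CTCF and C/EBP sequences were each found in at most 1 promoter and 1 distal window.

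**Figure D5:**
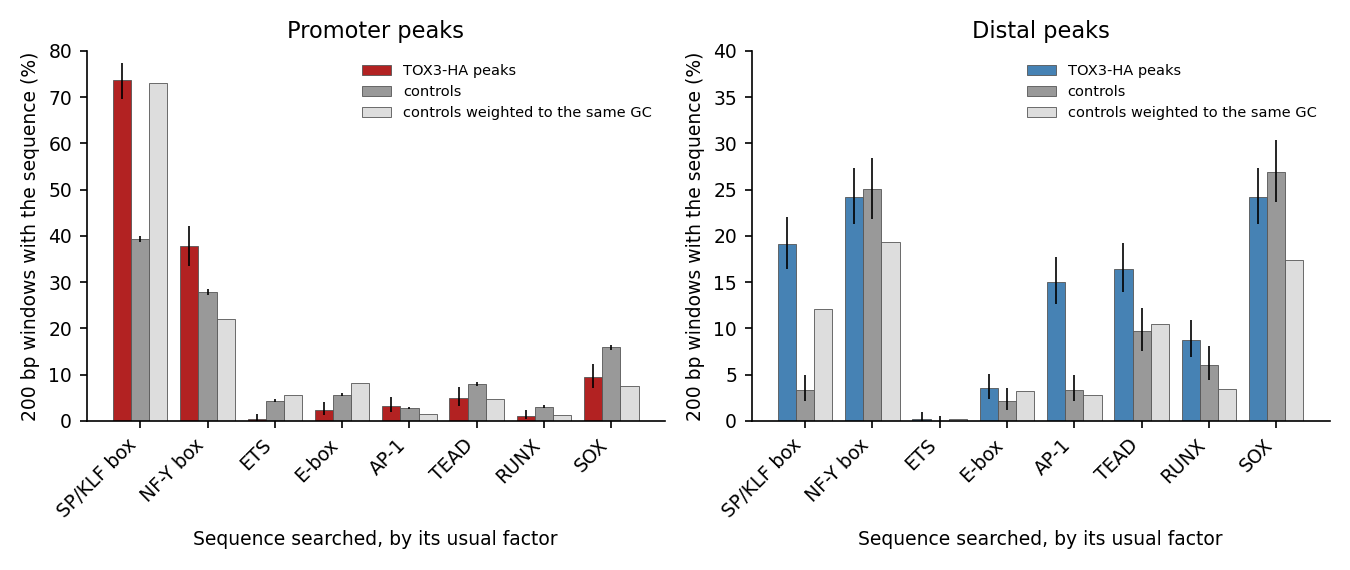
Share of 200 bp windows (y axis, percent) with each of 8 sequences, named by the factor that usually reads it, in TOX3-HA promoter peaks (left, n = 496) and distal peaks (right, n = 790), beside control windows and controls weighted to the same GC content. For distal peaks the weighted controls are the distal control windows of all lists, a larger set than the unweighted controls. Bars on the first 2 sets are 95% exact intervals, and the NF-Y box at promoters (37.7%) and AP-1 in distal peaks (15.1%) stay above both controls.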

How the data were processed

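Anti-HA ChIP-seq was carried out in NIH-3T3 cells for 29 samples, 28 of which have peak lists, and the input sample was not used. The lists deposited by the authors hold only chromosome, start and end of each peak (mm10), with no counts, signal or score. Per the labels and the study's methods, reads were processed with STAR 2.5.3a, Picard, MACS2 2.1.1.20160309 and deepTools 2.4.2, and the lists were filtered by the authors.

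Lists were analysed in Python 3.11.15 with NumPy 2.4.6, SciPy 1.17.1 and Matplotlib 3.10.9. Duplicates of 4 constructs were merged. A peak was shared when it overlapped another by at least 1 bp, and was a promoter peak when its midpoint was at most 1 kb from a GENCODE vM21 start of protein-coding transcription. Sequences came from RefSeq GRCm38. Shares have 95% exact (Clopper-Pearson) intervals, and Fisher's exact tests, two-sided, were adjusted by Benjamini-Hochberg over 23 constructs. Peaks of 1 library are the units, so neither covers variation between cultures. Distal controls were windows 5 kb downstream. Those at the same GC content were weighted from the distal control windows of all lists. Weighting by GC content used classes of 10 bases and was chosen after seeing the data.

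The members and gene lists were chosen with earlier results of these data known. Named peaks were the 12 widest promoter and distal peaks, the 6 widest of each kind in no other construct, the 3 in most constructs, and those of the genes in the lists. Peaks in no other construct outside Tox3 and the gene families said to be so were picked with their values in view. A peak that this rule would name is not reported here. The code was tested on simulated data.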

Additional observations from a re-analysis of the deposited data

How the results depend on the processing

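Alternatives numbered 54 for 11 results, of which 32 left the result in place, 19 moved it, 3 brought it past the threshold and 0 turned its direction. The promoter share of 38.6% was 35.5% with a 0.5 kb window, 42.1% with 2 kb, 48.1% with starts of every biotype, 42.7% for peaks of at least 300 bp and 43.4% without peaks of 10 or more other constructs. It was 42.0% with all transcripts of protein-coding genes, chosen after seeing the data. The share of peaks in no other construct, 4.12%, was 20.9% under a reciprocal overlap of 50%, 2.49% within 500 bp and 5.42% for peaks of at least 300 bp in every list. Without BHLHB8-HA it was 8.63%, and without TEAD1-HA 6.998%, both chosen after seeing the data. Leaving out either replicate of the duplicated constructs gave 4.98 to 5.13%. The log2 odds of sharing at promoter over distal peaks (-0.42, Fisher's exact p = 0.316) passed the threshold under reciprocal overlap (-1.74, p = 5.16e-18), without BHLHB8-HA (-0.59, p = 0.0414) and without TEAD1-HA (-1.79, p = 3.17e-08), and ranged from -0.52 to -0.34 with either replicate left out. Without the peaks inside Tox3, chosen after seeing the data, they were -0.88 and did not pass (Fisher's exact p = 0.0604). The counts of 1 construct with more promoter and 22 with more distal overlap were the same in all 5 alternatives run for each. Genes with a promoter peak fell from 517 to 333 when the peak had to cover the start.

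The difference from controls, in percentage points, was 34.3 for GGGCGG, 0.57 at the same GC content and 29.2 with windows at starts in both groups. It was 9.85 for CCAAT and 15.6 at the same GC content, and -4.00 for the ETS sequence, -5.29 at the same GC content and -3.05 at starts. In whole peaks the AP-1 difference was 18.5 instead of 11.7, and that of CATTCC 10.5 instead of 6.76. The controls of the same GC content and the windows at starts were chosen after seeing the data. The cause of each change was not tested, beyond the larger windows and stricter overlap themselves. No paired analysis was possible because TOX3-HA has 1 list and the tests compare peaks. Depth is unknown, so sites missed for want of reads cannot be counted.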
